A study of Mus musculus with 10 samples.

Results

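The circadian clock genes described here were 10 genes of the transcriptional clock, taken by symbol from the 15075 genes measured by RNA-seq in interscapular brown adipose tissue (iBAT) of mice: Arntl, Npas2, Per1, Per2, Per3, Cry1, Cry2, Nr1d1, Nr1d2 and Dbp. All 10 were in the table. The study asked what loss of cardiolipin synthase from fat does to iBAT, and compared 5 Control with 5 AdCKO mice. Control mice carried Crls1 f/f alleles, in which exon 4 is flanked by loxP sites, and no Cre, and AdCKO mice carried the same alleles with Cre driven by the Adipoq promoter, which is active in adipocytes of both white and brown fat. The mice were C57BL/6, 20 weeks old and housed at room temperature. The labels call the groups wild-type and knockout, and 1 library was made per mouse. The hour at which the tissue was taken, and the sex of these mice, are not given in the sources used here.

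The clock is a feedback loop of transcription. ARNTL (BMAL1) pairs with CLOCK or its relative NPAS2 and activates genes through E-box sequences, among them the Per, Cry, Nr1d and Dbp genes. PER and CRY proteins return to the nucleus and inhibit the activators, REV-ERB proteins (Nr1d1, Nr1d2) repress Arntl through RORE sequences that ROR proteins activate, and DBP with its relatives TEF and HLF activates D-box genes that NFIL3 represses. In most tissues, brown fat included, these mRNAs rise and fall over each day, Arntl in opposite phase to Dbp and Nr1d1, so that a level taken at a single hour reflects both how much of a gene is made and the phase of the rhythm.

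The values are normalized reads per kb of exon, comparable between genes. Multiplied by exon length, they summed to 7615403 to 8171138 normalized reads in the Control libraries and to 5419800 to 5843024 in the AdCKO libraries. The number of reads sequenced per library is not recoverable from them, and no value was 0. The targeted gene, Crls1 (NM_001024385), fell from 1060 ± 191 to 217 ± 26.4 (SD, n = 5 each), with no overlap between the groups. The tissue itself differed. The summed level of 7 macrophage markers was 421 to 1198 in Control and 5719 to 7807 in AdCKO libraries, with 7 of 7 higher in AdCKO. All 6 of 6 fibroblast and preadipocyte markers were higher as well, with sums of 874 to 1197 and 2972 to 4361, and 4 of 6 adipocyte markers were lower, with sums of 203864 to 231331 and 127926 to 151980. Most of the adipocyte sum was Fabp4 (mean 147241 in Control and 108235 in AdCKO), which was not called. The adipocyte marker Lep went the other way, from 61.3 to 145 (log2 fold change 1.70, adjusted p = 0.03506 by limma), and was not called. Of the other marker lists, 2 of 5 tested lymphocyte, 3 of 6 endothelial, 4 of 6 smooth muscle and pericyte and 4 of 5 Schwann cell markers were higher. In these last lists 1 marker each was lower, Rgs5 (log2 fold change −0.89) and S100b (−1.41), and the summed Schwann level was 495 to 767 in Control and 319 to 562 in AdCKO libraries. No marker was at 0 in any library. The summed level of 7 skeletal muscle markers was 83.8 to 110.6 in Control libraries and 5351, 19881, 130, 7633 and 116 in AdCKO libraries 1 to 5, so libraries 1, 2 and 4 stood apart, and results without them are given beside the calls. In whole tissue, fewer cells of a type and less RNA per cell cannot be told apart, and the part of these markers in the clock results was not tested.

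Each gene with a mean of at least 10 in Control or AdCKO was tested with limma on log2(value + 1), and was called where the Benjamini-Hochberg adjusted p over the 11244 tested genes was under 0.01. Of these, 53.6% were called, 25.6% higher and 28.0% lower in AdCKO. Of the 10 clock genes 9 were tested, 5 were called, 1 higher (Arntl) and 4 lower (Per2, Per3, Cry2 and Dbp), and 4 were not (Per1, Cry1, Nr1d1 and Nr1d2). This was 55.6% of those tested, close to the 53.6% of all genes, so the number of calls does not set the clock genes apart. Arntl, at 6.29 in Control, passed the filter through its AdCKO mean of 13.7 alone. A gene this low in Control could be tested only if it was higher in AdCKO, so the filter favoured this direction. Npas2 was below the filter in both groups. Without any filter Arntl was called higher (adjusted p = 7.891e-06 by limma) and Npas2 was not called (adjusted p = 0.02464 by limma). The groups did not overlap in the same 5 genes, against 50.9% of all tested genes (24.5% higher and 26.4% lower). The median log2 fold change was −0.28 over the 9 genes and −0.01 over all tested genes.

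**Figure D1:**
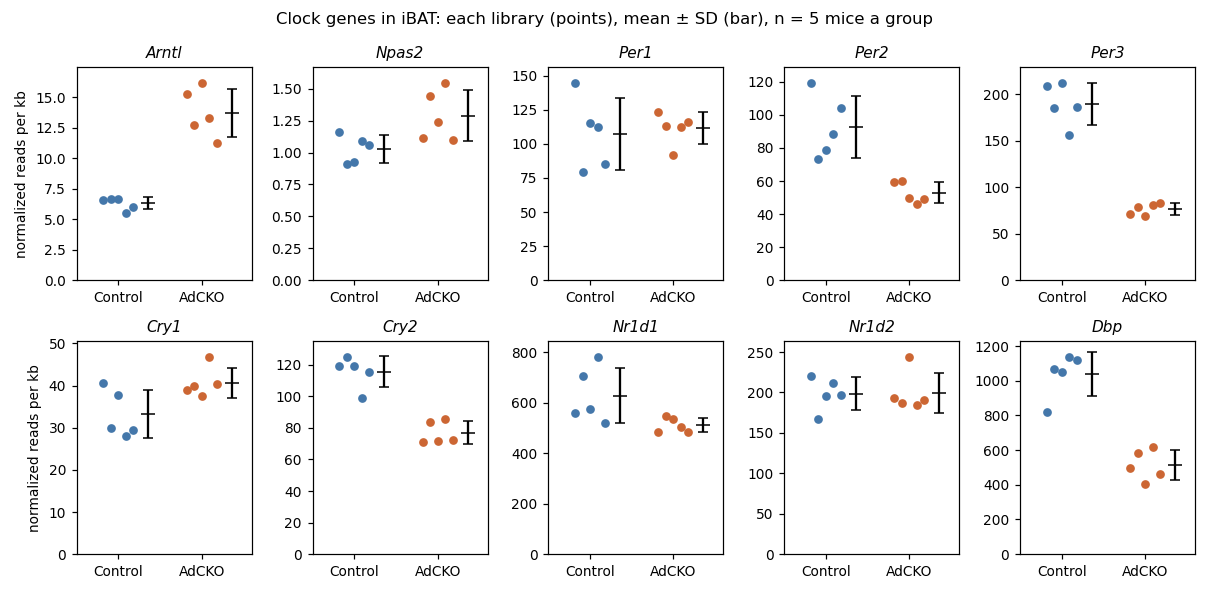
Level of each of the 10 clock genes in every library, in normalized reads per kb on a linear axis from 0, for 5 Control and 5 AdCKO mice, with the mean ± SD beside the points. The AdCKO points of Arntl lie wholly above the Control points, those of Per2, Per3, Cry2 and Dbp wholly below, and those of the other 5 genes overlap.

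Before the values, the sequences upstream of 4 clock genes are shown as examples of the clock elements found among the 10 genes, chosen with the values known. Whether these elements bear on the changes was not tested, and Cry2 and Dbp, which were also called lower, hold no D-box in their windows. Each is the 250 bases before the transcript start that the files list, from the mm9 genome, 5′ to 3′ on the strand of the gene. Capitals mark a D-box (TTATGTAA or TTACGTAA) in Per2 (chr1:93355906-93356155, minus strand) and Per3 (chr4:150418775-150419024, minus strand), an E-box (CACGTG) in Per1 (chr11:68912208-68912457, plus strand), and an E-box with an E′-box (CACGTT, here on the other strand, AACGTG) in Cry1 (chr10:84647800-84648049, minus strand).

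Per2: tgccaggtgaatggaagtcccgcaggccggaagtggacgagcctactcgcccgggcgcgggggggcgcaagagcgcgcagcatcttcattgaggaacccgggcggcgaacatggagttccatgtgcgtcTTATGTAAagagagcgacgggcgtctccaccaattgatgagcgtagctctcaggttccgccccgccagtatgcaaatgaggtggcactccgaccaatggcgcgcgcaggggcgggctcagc
Per3: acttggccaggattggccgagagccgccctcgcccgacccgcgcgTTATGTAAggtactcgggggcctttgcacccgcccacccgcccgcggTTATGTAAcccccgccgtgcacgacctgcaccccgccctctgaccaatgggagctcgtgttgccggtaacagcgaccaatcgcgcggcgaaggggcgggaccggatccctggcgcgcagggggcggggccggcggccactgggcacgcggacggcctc
Per1: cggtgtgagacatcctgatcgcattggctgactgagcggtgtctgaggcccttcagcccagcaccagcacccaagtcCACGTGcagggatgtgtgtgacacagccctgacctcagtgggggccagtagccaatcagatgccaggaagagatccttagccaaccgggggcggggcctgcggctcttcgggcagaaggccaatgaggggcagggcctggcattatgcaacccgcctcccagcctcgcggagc
Cry1: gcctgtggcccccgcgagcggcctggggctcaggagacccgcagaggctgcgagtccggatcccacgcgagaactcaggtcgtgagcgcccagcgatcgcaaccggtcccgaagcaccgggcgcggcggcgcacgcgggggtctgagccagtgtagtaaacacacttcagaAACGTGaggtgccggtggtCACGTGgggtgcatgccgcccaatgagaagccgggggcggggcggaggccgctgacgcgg

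Both strands were searched in all 15075 such windows. A D-box was in 0.67% of them, and among the 10 clock genes in Per2, 121 to 114 bases before the start, and in Per3, which held it at 205 to 198 and again at 158 to 151 bases before the start. An E-box was in 7.87% of windows and in Per1 (173 to 168 bases before the start) and Cry1 (60 to 55). The E′-box was in 4.46% and in Cry1 (79 to 74), Cry2 (166 to 161) and Nr1d1 (28 to 23). No clock gene of the 10 held the RORE core TAGGTCA (1.67% of windows), the cAMP response element TGACGTCA (2.5%) or the heat shock element (0.345%). No match overlapped another. The match is to letters only, elements further away were not searched, and the letters do not show which factor was bound.

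Among the activators, Arntl (NM_001243048, chr7:120350979-120457640, plus strand), which encodes BMAL1, measured 6.59, 6.65, 6.64, 5.54 and 6.03 in the Control libraries and 15.2, 12.7, 16.1, 13.3 and 11.2 in the AdCKO libraries. Every AdCKO library was above every Control library, and the mean rose from 6.29 ± 0.49 to 13.7 ± 1.97. On the log2(value + 1) scale the difference was 1.01 (SE 0.12, adjusted p = 1.042e-05 by limma), which understates the change of so low a gene, since AdCKO reached 218% of Control on the linear scale. Without AdCKO libraries 1, 2 and 4 it was 0.99 (adjusted p = 0.0004334 by limma). The Control mean of Arntl corresponds to 16.45 normalized reads per library, and the variance between Control libraries was 0.101 times the mean in reads, whereas counting alone gives a ratio near 1. The same ratio had a median of 0.15 over all genes at 5 to 20 reads in Control and 0.005 below 5 reads. Low values thus vary less between libraries than counts do, and p-values for them may be too small. Whether differences between the groups are reduced as well cannot be seen from the spread within a group. With counting error in place of the measured spread, the Arntl difference of 7.43 reads per kb had a standard error of 1.24.

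Npas2 (NM_008719, chr1:39251117-39420085, plus strand), which can stand in for CLOCK as partner of BMAL1, was the lowest of the 10. It measured 1.16, 0.912, 0.926, 1.09 and 1.06 in Control and 1.12, 1.45, 1.24, 1.54 and 1.10 in AdCKO libraries. The groups overlapped, the log2(value + 1) difference was 0.17, and the exact permutation test gave p = 0.0397 (two-sided). Its Control mean corresponds to 4.30 normalized reads, where the reduced spread just described is strongest, so little can be read from it. Clock itself, the main partner, measured 39.5, 34.7, 32.5, 44.7 and 39.8 in Control and 45.9, 49.4, 57.1, 44.5 and 46.4 in AdCKO libraries. The call was narrow (log2 fold change 0.34, SE 0.10, adjusted p = 0.008899 by limma), the groups overlapped, and it was lost in 8 of the 10 fits that left out 1 library and without AdCKO libraries 1, 2 and 4. Arntl2, a BMAL1 paralog, was 24.0 in Control and 19.5 in AdCKO (log2 fold change −0.29, adjusted p = 0.04878 by limma) and was not called.

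The Per genes, which encode the inhibitors made first in each cycle, did not move together. Per3 (NM_011067, chr4:150377764-150418774, minus strand) measured 209, 185, 212, 156 and 186 in Control and 71.2, 79.1, 68.9, 80.9 and 82.8 in AdCKO libraries. All AdCKO libraries were below all Control libraries, and the mean fell from 189 ± 22.4 to 76.6 ± 6.16 (log2 fold change −1.29, SE 0.09, adjusted p = 1.961e-07 by limma), the smallest p of the 10 genes. Per2 (NM_011066, chr1:93312559-93355905, minus strand) measured 119, 73.5, 78.8, 88.6 and 104 in Control and 59.4, 60.2, 49.7, 46.0 and 49.3 in AdCKO libraries. The mean fell from 92.8 ± 18.8 to 52.9 ± 6.44, with no overlap (log2 fold change −0.78, SE 0.13, adjusted p = 0.0002068 by limma). Their upstream windows hold the D-boxes shown above, and whether these bear on the lower levels was not tested.

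Per1 (NM_011065, chr11:68912458-68923459, plus strand), which in many cells also responds acutely to glucocorticoid and cAMP, measured 144, 79.2, 115, 113 and 85.2 in Control and 123, 113, 91.9, 112 and 116 in AdCKO libraries. The AdCKO values lay inside the Control range, and the difference of 0.08 on the log2 scale (SE 0.15, adjusted p = 0.6505 by limma) was smaller than its error. Its coefficient of variation was 24.4% in Control and 10.6% in AdCKO, the widest Control spread of the 10 genes.

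The Cry genes, which encode the strongest repressors of CLOCK and BMAL1, differed from each other. Cry2 (NM_009963, chr2:92243804-92274226, minus strand) measured 119, 125, 119, 98.7 and 116 in Control and 71.0, 84.0, 71.5, 85.5 and 72.3 in AdCKO libraries. It fell from 116 ± 9.99 to 76.9 ± 7.22 with no overlap (log2 fold change −0.58, SE 0.08, adjusted p = 6.233e-05 by limma). Cry1 (NM_007771, chr10:84594445-84647799, minus strand) measured 40.7, 30.0, 37.9, 28.1 and 29.4 in Control and 38.9, 39.9, 37.5, 46.8 and 40.5 in AdCKO libraries. Here 2 Control libraries, 1 and 3, reached the AdCKO range, and the difference of 0.30 (SE 0.11, adjusted p = 0.03247 by limma) was not called. It was called only in the fit without Control library 1 among those leaving out 1 library, at 0.37 (adjusted p = 0.007936 by limma).

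**Figure D2:**
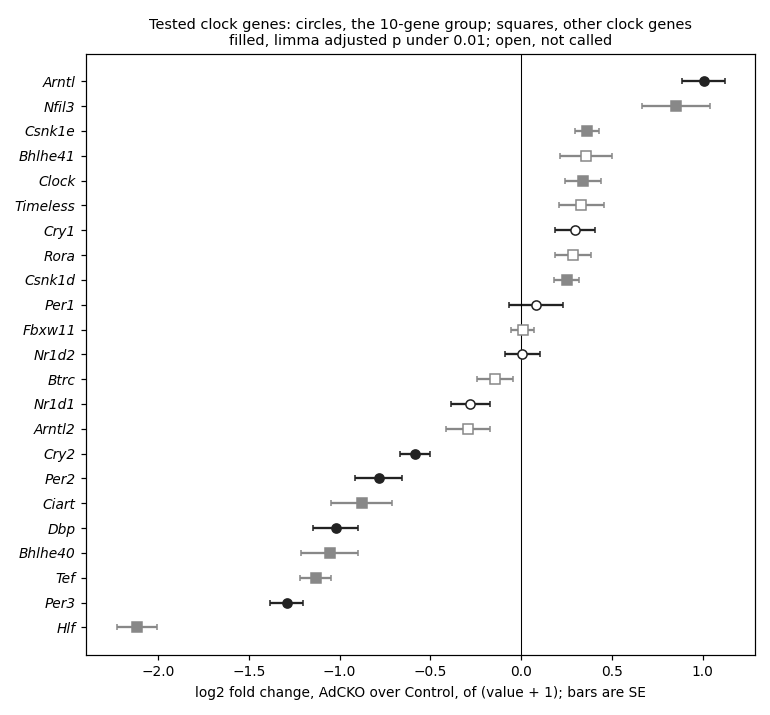
Log2 fold change (AdCKO over Control, of value + 1) with its SE for tested clock genes named in the text, sorted by size, circles for the 10-gene group and squares for the other clock genes, filled where the limma adjusted p was under 0.01. Hlf (−2.12) and Per3 (−1.29) lie furthest below 0, and Arntl (1.01) and Nfil3 (0.85) furthest above.

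The REV-ERB genes encode repressors of Arntl. Nr1d1 (NM_145434, chr11:98629246-98636691, minus strand) measured 558, 706, 577, 781 and 520 in Control and 484, 548, 537, 505 and 486 in AdCKO libraries. The mean was 629 ± 110 in Control and 512 ± 29.2 in AdCKO, the groups overlapped, and the difference of −0.28 (SE 0.11, adjusted p = 0.03595 by limma) was not called. Nr1d2 (NM_011584, chr14:19036570-19071620, minus strand) measured 220, 167, 196, 212 and 197 in Control and 193, 186, 244, 184 and 191 in AdCKO libraries, a difference of 0.01 (SE 0.10, adjusted p = 0.9603 by limma). Neither REV-ERB gene was called. Among the genes of ROR activators at the same sequences, Rora was 18.8 in Control and 23.1 in AdCKO and was not called (log2 fold change 0.29, adjusted p = 0.0242 by limma). Rorb was near 0.5 in both groups and was not tested.

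Dbp (NM_016974, chr7:52960617-52965573, plus strand), a direct E-box target whose product activates D-box genes, measured 817, 1069, 1053, 1137 and 1118 in Control and 499, 581, 406, 618 and 464 in AdCKO libraries. It was the highest of the 10 clock genes in Control and fell from 1039 ± 128 to 514 ± 85.9 (log2 fold change −1.02, SE 0.12, adjusted p = 1.555e-05 by limma). The other activators of its family fell with it. Hlf measured 160, 114, 114, 108 and 142 in Control and 28.2, 29.7, 26.0, 31.9 and 26.3 in AdCKO libraries, a log2 fold change of −2.12 (SE 0.11, adjusted p = 2.776e-08 by limma). Tef measured 801, 729, 661, 701 and 794 in Control and 351, 381, 302, 345 and 302 in AdCKO libraries, a log2 fold change of −1.13 (SE 0.08, adjusted p = 3.017e-07 by limma).

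Nfil3, which encodes the repressor of the same D-box, measured 54.1, 44.5, 35.0, 55.1 and 47.4 in Control and 75.9, 76.1, 110, 58.5 and 120 in AdCKO libraries. It rose from 47.2 ± 8.15 to 88.1 ± 25.9 with no overlap, although AdCKO library 4 lay close to the highest Control library (log2 fold change 0.85, SE 0.19, adjusted p = 0.001606 by limma). At the mRNA level the 3 D-box activators were lower and the repressor higher in AdCKO. Per2 and Per3 were lower as well, and these 6 calls held without AdCKO libraries 1, 2 and 4. When every library was rescaled to the same total, the Per2 call was lost (−0.31, adjusted p = 0.05285 by limma). Whether these changes are linked was not tested.

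**Figure D3:**
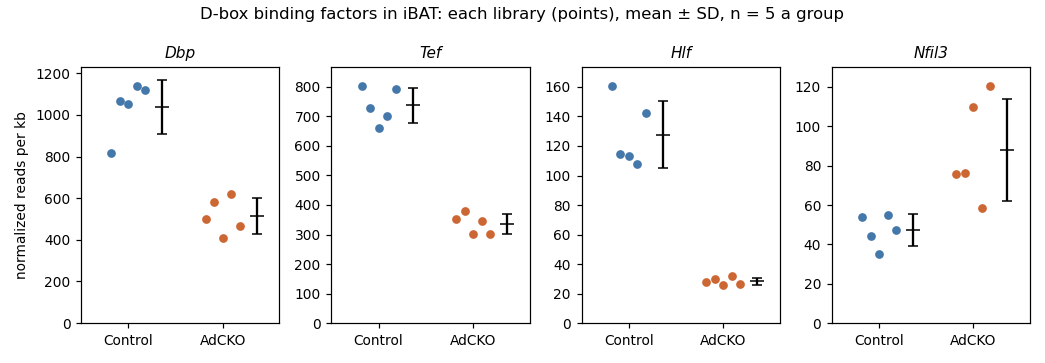
Levels of the D-box activators Dbp, Tef and Hlf and of the repressor Nfil3 in every library, in normalized reads per kb on axes from 0, with the mean ± SD, for 5 Control and 5 AdCKO mice. The 3 activators lie wholly lower in AdCKO and Nfil3 wholly higher, with AdCKO values of 58.5 to 120 against 35.0 to 55.1.

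Of the 18 other clock genes, 16 were tested, 4 were called higher, 5 lower and 7 were not called, 56.2% of those tested, again close to all genes. When every library was rescaled to the same total, 9 were called higher and 4 lower. Besides Clock, Nfil3, Tef and Hlf, the calls included Bhlhe40 and Ciart, both repressors at E-box sequences or their activators, and the kinases Csnk1d and Csnk1e, which phosphorylate PER proteins. Bhlhe40 fell from 499 ± 96.6 to 240.5 ± 51.7 (log2 fold change −1.05, SE 0.16, adjusted p = 7.434e-05 by limma), and its relative Bhlhe41 was 47.7 in Control and 61.7 in AdCKO, not called. Ciart fell from 99.99 ± 26.1 to 52.7 ± 6.81 (log2 fold change −0.88, SE 0.17, adjusted p = 0.0005263 by limma) and was not called without AdCKO libraries 1, 2 and 4 (−0.80, adjusted p = 0.01054 by limma) or with equal totals (−0.40, adjusted p = 0.04625 by limma). Csnk1e rose from 98.2 to 126 (0.36, adjusted p = 0.0003019 by limma) and Csnk1d from 219 to 261 (0.25, adjusted p = 0.006859 by limma), the latter call being lost in 7 of the 10 fits that left out 1 library. Without AdCKO libraries 1, 2 and 4, which leaves 2 AdCKO libraries, neither kinase was called, at differences of 0.32 for Csnk1e and 0.26 for Csnk1d that were about as large as with all libraries. Timeless, and Btrc and Fbxw11, which encode ubiquitin ligase subunits for PER, differed by −0.14 to 0.33 and were not called, and Fbxl21, near 3, was not tested.

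The order of the levels changed between the groups. In Control, Dbp was highest, followed by Nr1d1, Nr1d2 and Per3, then Cry2, Per1 and Per2, then Cry1, Arntl and Npas2. The ranges of Nr1d2 and Per3 overlapped, as did those of Cry2 and Per1 and of Per1 and Per2, while every other neighbouring pair was apart. In AdCKO, Dbp and Nr1d1 overlapped, and Per1, which ranked 6 in Control, ranked 4, above Cry2 and Per3, which overlapped, as did Per2 and Cry1 below them.

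Ratios of 2 clock genes within a library do not depend on how that library was scaled. They are descriptions, with no test. Arntl over Dbp, an activator over its own target, was 0.00488 to 0.00807 in Control and 0.0216 to 0.0397 in AdCKO libraries. This was a 4.40-fold difference of the mean log2 ratios. Arntl alone was wholly higher and Dbp alone wholly lower in AdCKO, so the lack of overlap in their ratio follows and adds nothing. Cry1 over Cry2 was 0.241 to 0.341 in Control and 0.476 to 0.560 in AdCKO (1.86-fold, no overlap), and Per1 over Per2 was 0.819 to 1.46 and 1.85 to 2.45 (1.84-fold, no overlap). The proportions of Cry1 to Cry2 and of Per1 to Per2 thus differed between the groups. Npas2 over Nr1d1 was 1.51-fold higher without overlap, on the very low values of Npas2. The ratios of Nr1d1 to Nr1d2 and of Per2 to Per3 overlapped between the groups.

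**Figure D4:**
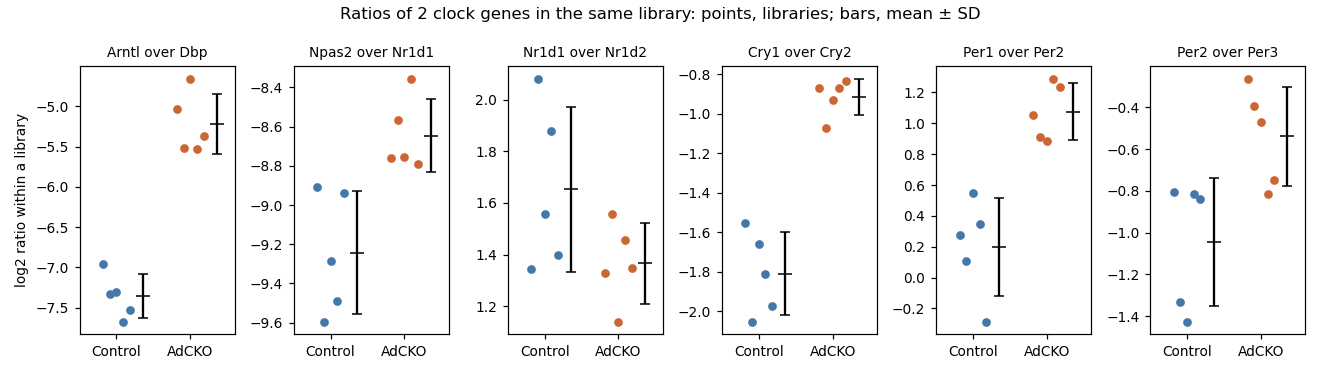
Log2 ratio of 2 clock genes in the same library for 6 pairs, with 5 Control and 5 AdCKO points and the mean ± SD, on axes that do not start at 0. Arntl over Dbp, Npas2 over Nr1d1, Cry1 over Cry2 and Per1 over Per2 are higher in every AdCKO library than in any Control library, and the other 2 pairs overlap.

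The sum of normalized values was lower in every AdCKO library, so the scaling was changed to give each library the same total. This moved the median of all genes by 0.47 and turned the calls from 47.7% higher and 52.3% lower to 86.1% higher and 13.9% lower. Among the clock genes Arntl (1.44), Per3 (−0.81) and Dbp (−0.54) were still called in the same direction. Per2 (−0.31, adjusted p = 0.05285 by limma) and Cry2 (−0.11, adjusted p = 0.2338 by limma) were no longer called, and Per1 (0.56), Cry1 (0.77) and Nr1d2 (0.49) were called higher. Of the other D-box factors, Hlf (−1.64) and Tef (−0.65) remained called lower and Nfil3 higher (1.33). Nr1d1 was −0.28 with the authors' scaling and 0.20 with equal totals, called in neither. Quantile normalization left the 5 calls in place, with Arntl at 0.50 (adjusted p = 0.003207 by limma), less than 1.01, and ended that of Clock (0.18, adjusted p = 0.151 by limma). The lower Per2 and Cry2 are therefore lower relative to the median gene. The within-library ratios do not change when a library is multiplied by a single factor, as with equal totals, but quantile normalization alters each value and does move them.

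**Figure D5:**
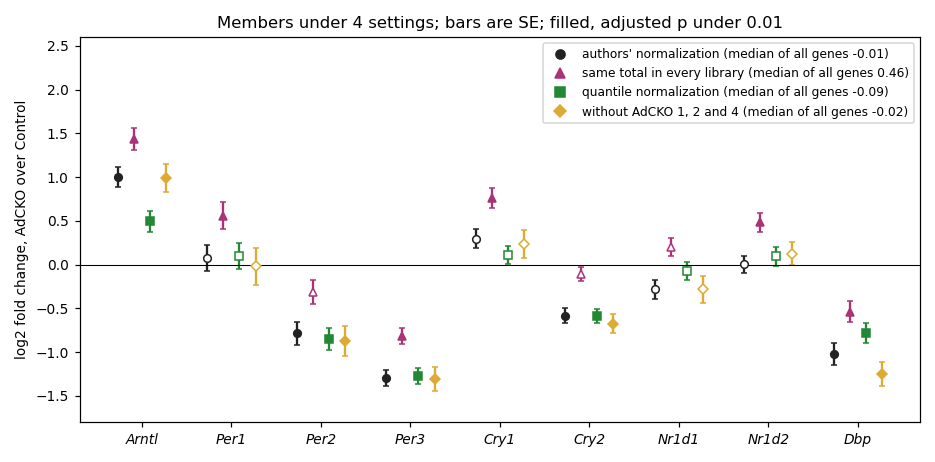
Log2 fold change with its SE for the 9 tested clock genes under the authors' scaling, equal library totals, quantile normalization, and without AdCKO libraries 1, 2 and 4, filled where the limma adjusted p was under 0.01. Arntl, Per3 and Dbp are filled under all 4, and equal totals shift every gene upward, Arntl to 1.44.

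Genes downstream of the clock went in both directions. Of 9 tested genes driven by the clock in other tissues, 2 were called higher and 3 lower (median log2 fold change −0.36). This was 55.6%, close to the 53.6% of all tested genes, so the number of calls does not set them apart. Nampt, the rate-limiting enzyme of NAD salvage and an E-box target, fell from 841 ± 120 to 312 ± 35.5 (−1.42, adjusted p = 2.655e-07 by limma). Por, the electron donor of microsomal P450 enzymes, fell from 1521 to 764 (−0.99, adjusted p = 3.607e-07 by limma), and Lpin1, a phosphatidate phosphatase, from 1105 to 764 (−0.53, adjusted p = 0.002412 by limma), with overlap. The Lpin1 call was lost with equal totals (−0.05) and with quantile normalization (−0.26). Slc25a25, a mitochondrial ATP-Mg carrier, rose from 26.3 to 61.9 (1.20, adjusted p = 9.233e-06 by limma). Alas1, the first enzyme of haem synthesis, was called at 0.42 (adjusted p = 0.008725 by limma), and 8 of the 10 fits leaving out 1 library lost that call.

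Genes of 3 inputs that can reset a tissue clock were also read. Of 10 glucocorticoid response genes, 2 rose and 3 fell. Fkbp5, a classical target of the receptor, rose by 0.85 (adjusted p = 0.0001982 by limma), as did Tsc22d3 (0.58), while the metallothionein gene Mt1 (−0.86) and Klf9 (−0.45) fell. Hsd11b1, which regenerates active glucocorticoid inside cells, fell by 2.34 on the log2 scale (adjusted p = 3.419e-06 by limma), and the list had no common direction. The share called was 50%, against 53.6% of all tested genes. With equal totals it held 5 higher and 1 lower. Of 11 tested cAMP and immediate early genes 4 rose and 0 fell by limma, and 1 was lower at an unadjusted p under 0.05. The share called was 36.4%, below the 53.6% of all tested genes, with 25.6% of all genes higher. The 4 were Fos, from 9.15 ± 3.13 to 37.9 ± 10.98, Junb (1.18), Nr4a1 (2.48) and Nr4a3 (1.57). Of 7 temperature-linked genes 4 rose and 0 fell by limma, with 0 lower at an unadjusted p under 0.05, a share called of 57.1% against the same 53.6%. Rbm3, a cold-inducible RNA-binding protein gene, rose by 0.57 (adjusted p = 0.0006925 by limma). Hspa1a (1.86) and Hspa1b (1.77), heat shock genes, are near-identical copies and their separate values are uncertain. Another called gene of this list is counted but not reported singly here. Cirbp, another cold-inducible gene, was −0.14 and was not called.

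Exons of some clock genes overlap a gene on the other strand, and whether reads were counted by strand is not given in the sources used here. Dbp shares 491 bases with Sphk2, which rose by 0.58 (adjusted p = 0.0001131 by limma), the direction opposite to Dbp. Nr1d1 shares 263 bases with Thra, which fell by 0.67 on the log2 scale (adjusted p = 3.771e-05 by limma), the same direction as the uncalled difference of Nr1d1, so reads of the pair cannot be told apart in the shared bases. Cry2 shares 295 bases with the non-coding RNA D930015M05Rik. No such overlap was found for the other 7 clock genes.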

How the data were processed

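Polyadenylated RNA from the iBAT of 10 mice was sequenced, 1 library per mouse, so that p-values measure the spread between mice. The authors used STAR with the mm9 build, HOMER and iRNA-seq to obtain exon reads for each RefSeq gene, applied DESeq2 size normalization and then scaled by exon length, and the deposited table holds this signal as normalized reads per kb for 15075 genes. Their versions are not given in the sources used here. Raw counts, and so depth, were not used. Low values varied less between libraries than counting allows, so p-values of low genes may be too small. Deposited columns of fold changes and p-values, and the lists chosen from them, hold the authors' own comparison and were not used.

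Values were taken as log2(value + 1). Genes reaching a mean of 10 in Control or AdCKO (11244) were fitted with limma 3.58.1 (R 4.3.3; lmFit and eBayes with trend; two-sided; Benjamini-Hochberg over all tested genes; called under 0.01). Single genes also had an exact permutation test, whose smallest p is 0.0079 for 5 against 5. Named genes were the 10 clock genes, every gene of the other clock list, up to 4 genes with the smallest p from each further list, any called gene against its list's majority, and the 3 genes most similar to the clock gene with the smallest p in each direction. The genes overlapping clock exons, and genes given as examples beyond this, were chosen after their values were seen. Some genes of the other clock and temperature-linked lists are counted but not reported singly here. Gene members and lists were chosen with earlier results of these data known. Alternatives were another pseudocount (0.1 or 10), no filter or a mean of at least 1, equal totals, quantile normalization, no trend, adjusted p under 0.05, a replicate block and leaving out each library. Dropping the muscle-marker libraries was added after seeing the data. Windows upstream were read from the mm9 genome. The fit was tested on simulated data with known changes.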

Additional observations from a re-analysis of the deposited data

Results flagged for a closer look

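Each clock gene was examined in both groups, 20 sets of 5 libraries, for a library far from its group, and chance flags about 1 in 20 such sets. Nr1d2 was 243.7 in AdCKO replicate 3, above the other 4 AdCKO libraries. Without that library the log2 fold change of Nr1d2 was −0.07 (adjusted p = 0.4907 by limma), against 0.01 with it. Dbp was 817 in Control replicate 1, below the other 4 Control libraries. Without that library the log2 fold change of Dbp was −1.10 (adjusted p = 1.064e-05 by limma), against −1.02 with it.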

How the results depend on the processing

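The calls of Arntl, Per3 and Dbp held in all 19 other settings tried, with log2 fold changes of 0.50 to 1.44, −1.36 to −0.81 and −1.25 to −0.54. With equal library totals Per2 (−0.31) and Cry2 (−0.11) lost the call and Per1 (0.56), Cry1 (0.77) and Nr1d2 (0.49) gained one, and 7 cAMP and immediate early genes were called in place of 4. Adjusted p under 0.05 also called 7 of these genes, and 7 of the clock genes in place of 5. Quantile normalization left 3 glucocorticoid response genes called in place of 5. Leaving out 1 library at a time moved Cry1 between 0.24 and 0.37, the latter, without Control replicate 1, being a call. Without AdCKO libraries 1, 2 and 4, which leaves 2 AdCKO libraries, 5 of the other clock genes were called in place of 9, and 4274 of 11097 genes. Libraries with the same number did not deviate together (correlations −0.268 to 0.098 over 5 pairs), and the replicate block called 5430 genes in place of 6031 and changed none of the 5 clock gene calls. Depth limits Arntl and Npas2 most, at 16.45 and 4.30 normalized reads in Control.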

Other observations

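The genes closest to Arntl over the 10 libraries, by the mean absolute difference of log2(value + 1) from the Control mean, were Aspn (0.0517), which encodes a small leucine-rich matrix protein, Tcf19 (0.0647) and Galnt12 (0.0653), a glycosyltransferase gene. Aspn was 85.0 ± 6.496 in Control and 171 ± 22.8 in AdCKO. Closest to Per3 were Acadsb (0.0494), an acyl-CoA dehydrogenase gene of mitochondria, Mut (0.0701), the mitochondrial methylmalonyl-CoA mutase gene, and Rnf150 (0.0828). Acadsb was 674 ± 68.9 in Control and 267 ± 24.7 in AdCKO. Likeness over these libraries says that the genes differ between the groups by a like amount.

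Of the 68 tested genes with a D-box in the 250 bases upstream, 12 (17.6%) were called higher and 26 (38.2%) lower, and the median log2 fold change was −0.15. Of the 960 with an E-box, 24.9% were higher and 24.2% lower. Of the 511 with an E′-box, 20.9% were higher and 31.9% lower. Over all tested genes the shares were 25.6% and 28.0%. Per2 and Per3 are among the D-box genes called lower. These shares are for the authors' scaling, and with equal totals only 13.9% of all calls were lower. Whether the shares differ from those of all genes, or whether a motif bears on them, was not tested.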
